A study of Mus musculus with 23 samples.

Results

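Apoa4 encodes apolipoprotein A-IV, and Creb3l3 encodes CREBH, a transcription factor described as its activator. These 2 genes, of 26522 gene identifiers in the deposited tables, were followed across 23 mouse livers. The pair was chosen by the raw counts of Apoa4, which were higher in females after ablation of hepatic Cpt1a, the gene of the mitochondrial fatty acid import enzyme CPT1a, and the choice also took in its co-variation with the gene Cidec. Both the contrast between genotypes in Apoa4 and its relation to Cidec are therefore given as descriptions with no test. Creb3l3 was included for its role, and its own values were tested. Cidec was tested as well, but its p-values are not independent of the choice.

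The males were 5 controls and 6 LKO, the females 6 controls and 6 LKO, and bulk liver RNA of each was sequenced. By the labels, the controls are of genotype B100-Control and the others of genotype B100-LKO, so that every animal shares B100. All were on WD for 16 weeks and were in the fed state at necropsy. The labels spell out none of these abbreviations. The ablation of hepatic CPT1a is named in the title of the series, while the age of the animals and the driver of the ablation are not given in the sources used here. Each sex has a deposited table of its own, so sex and table cannot be told apart.

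Apolipoprotein A-IV is a lipid-binding protein of chylomicrons, HDL and VLDL that is made by enterocytes and, in mice, also by hepatocytes. Its hepatic transcript is known to be higher in fatty liver, and the protein is described as promoting the export of triglyceride in larger VLDL particles. CREBH is a bZIP factor of liver and intestine that is anchored in the membrane of the endoplasmic reticulum. It is carried to the Golgi, cut by the site-1 and site-2 proteases, and only the released amino-terminal part enters the nucleus, so its transcript does not measure its activity. Cidec, which encodes a lipid droplet protein that drives droplet growth, is another gene described as a CREBH target and serves here as the partner gene whose level was set beside that of Apoa4.

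Library totals ran from 14224665 to 19626662 counts. Values are CPM, the counts of a gene per 1e6 counts of its library, scaled by TMM factors over all 23 libraries. Cpt1a was 357 ± 50.3 CPM in control males (SD, n = 5) and 63.0 ± 20.2 in LKO males (SD, n = 6). It was 387 ± 59.1 CPM in control females and 75.9 ± 8.87 in LKO females (SD, n = 6 each), and every LKO liver lay below all controls of its sex, as in 1.06 percent of genes in males and 0.563 percent in females. The hepatocyte markers Alb, Ttr, Apoh, Serpina1c and Cyp2e1 were abundant in every liver, with a summed level of 46715 to 89116 CPM. Control male replicate 4 stood apart, with the lowest total, the fewest genes with counts (18232) and the lowest Apoa4 and Cidec of any male liver. Male values that move without it are given both ways.

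Apoa4 lies on chromosome 9 (ENSMUSG00000032080, 46151994 to 46154757, plus strand, mm39), between Apoc3 and Apoa5 in a cluster of apolipoprotein genes. The 250 bases before its annotated start are shown because Apoa4 and Cidec varied together across livers, and the window shows which textbook motifs lie next to the start. Capitals mark a match to the motif CAAAGTNCA, bound by the liver factor HNF4. The sequence is that of RefSeq, build GRCm38.p6, chr9:46240594-46240843, plus strand, 5′ to 3′.
Apoa4 promoter: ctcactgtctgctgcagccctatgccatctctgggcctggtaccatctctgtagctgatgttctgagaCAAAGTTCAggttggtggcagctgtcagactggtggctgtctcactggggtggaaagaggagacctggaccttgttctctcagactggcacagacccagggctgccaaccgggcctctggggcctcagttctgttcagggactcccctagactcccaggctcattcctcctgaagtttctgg
The HNF4 motif, which was searched with this sequence in view, lies 182 to 174 bases before the start. It was found in 1.19 percent of 32851 promoter windows of this length, both strands searched. The cAMP response element core TGACG was not found in the Apoa4 window and was found in 17.8 percent of all windows. The motif CCACG, the core of the unfolded protein response element, was not found there either and was found in 28.3 percent. Of the 2 annotated starts of Creb3l3, 1 had a match to TGACG and to CCACG and the other had neither, and of the 2 starts of Cidec, 1 had a match to CCACG. These are matches of letters and not sites.

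Apoa4 was higher in LKO than in control females. In control females the lowest, median and highest values were 271, 468 and 538 CPM. In LKO females they were 727, 1085 and 1311 CPM. All 6 LKO females lay above all 6 control females, and control female replicate 5 was the lowest of all 23 livers. The means were 448 ± 96.2 and 1054 ± 213 CPM (SD, n = 6 each), a 2.35-fold ratio that the fit gave as 1.23 on the log2 scale. Among 13679 genes, 1.02 percent had all LKO females above all control females, a share from which nothing is read, since Apoa4 was picked for this contrast.

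No such separation was seen in males, where the livers of each genotype were widely spread. The 5 control males had 2039, 1610, 2896, 457 and 1920 CPM. In LKO males the lowest, median and highest values were 880, 2030 and 2983 CPM. The groups overlapped over nearly their whole range, with control male replicate 4 lowest and LKO male replicate 3 highest. The means were 1784 ± 882 CPM (SD, n = 5) and 1963 ± 765 CPM (SD, n = 6), a ratio of 1.1, where 0.681 percent of genes had all LKO males above all controls. Without control male replicate 4 the ratio was 0.928, and the fitted log2 value, 0.13, also turned, to -0.02, without LKO male replicate 3.

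The order of the 4 groups, from control females through LKO females and control males to LKO males, placed both male groups highest. Control males held 3.99 times the mean of control females, or 4.73 times without control male replicate 4. Of the 5 control males 4 lay above every control female, and replicate 4, at 457 CPM, lay among them. In LKO livers the male mean was 1.86 times the female mean, and 5 of 6 LKO males lay above every LKO female. LKO males and control males, neighbours in this order, did not differ beyond their spread. LKO females overlapped control males only through the range set by control male replicate 4, since the other 4 control males were all above 1311 CPM.

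**Figure D1:**
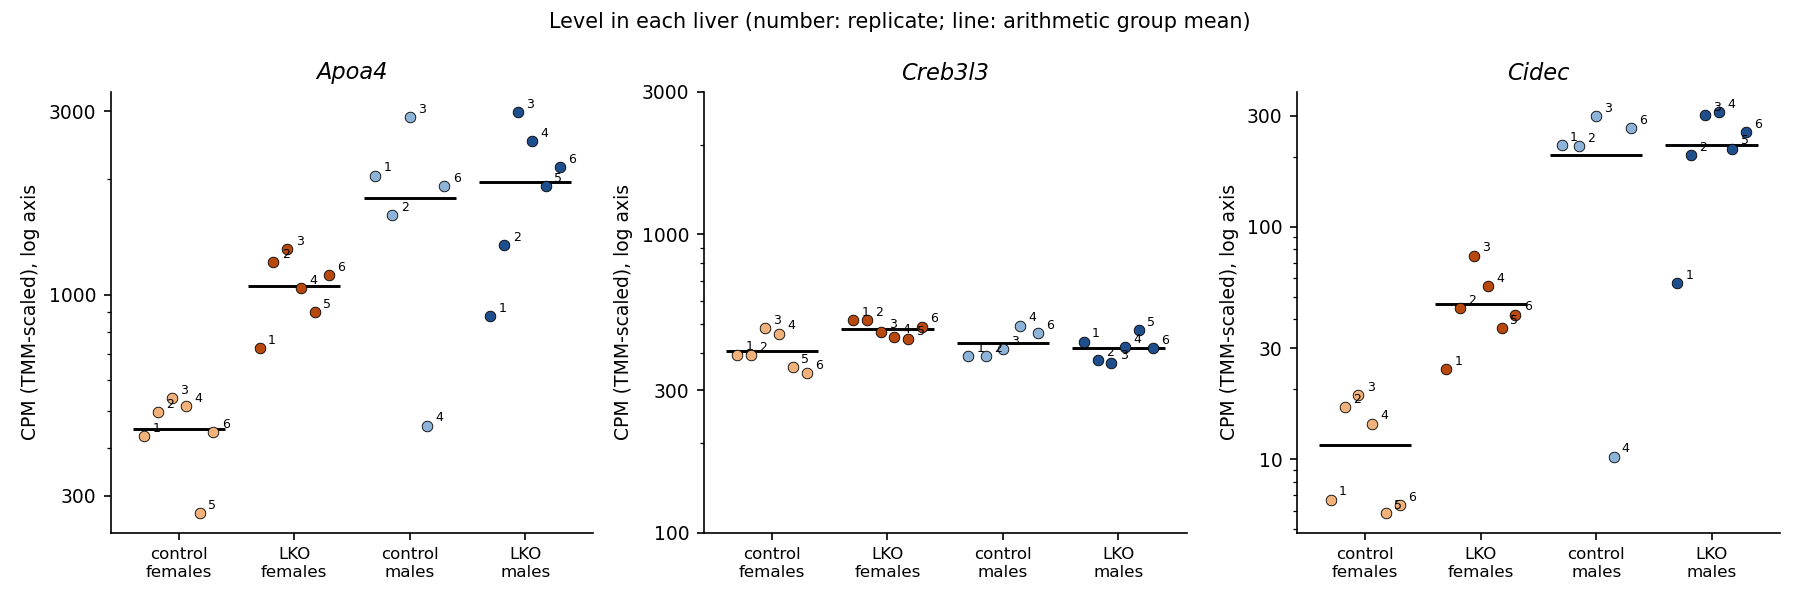
Apoa4, Creb3l3 and Cidec in each of 23 livers, as TMM-scaled CPM on log axes, by group; points are livers with their replicate number and lines are arithmetic group means. Apoa4 spans 271 to 2983 CPM and Cidec 5.89 to 312 CPM in the same order of groups, while Creb3l3 stays between 342 and 516 CPM. Of the genes shown, control male replicate 4 is low for Apoa4 and Cidec and not for Creb3l3.

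Creb3l3 (ENSMUSG00000035041, chromosome 10, 80920158 to 80934708, minus strand, mm39) varied little across all groups. The highest of the 23 livers, LKO female replicate 1, held 1.51 times the lowest, control female replicate 6, whereas for Apoa4 this fold was 10.99. Within groups the SD of log2(CPM + 1) was 0.15 for Creb3l3 and 0.62 for Apoa4.

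In control females the lowest, median and highest Creb3l3 values were 342, 395 and 484 CPM. In LKO females they were 446, 481 and 516 CPM, so the ranges overlapped and 3 of 6 LKO livers lay above all controls. The means were 407 ± 56.8 and 482 ± 30.8 CPM (SD, n = 6 each). This difference, 0.24 on the log2 scale (SE 0.09), was not called by the edgeR quasi-likelihood test, with p adjusted over all genes (0.223, or 0.120 to 0.401 over 21 alternatives). In females 1.42 percent of 13684 tested genes were called at an adjusted p under 0.05, 0.928 percent as higher and 0.49 percent as lower.

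The 5 control males had 392, 391, 413, 495 and 467 CPM of Creb3l3. In LKO males the lowest, median and highest values were 370, 418 and 478 CPM. Control male replicate 4, lowest of its group for Apoa4, was the highest for Creb3l3. The means were 432 ± 46.9 CPM (SD, n = 5) and 417 ± 39.2 CPM (SD, n = 6), or -0.05 on the log2 scale (SE 0.09, adjusted p 0.874 by edgeR), which was 0.01 with library size alone. It was -0.002 (edgeR adjusted p 0.997) without control male replicate 4, with a ratio of means of 1.002 in place of 0.965. Of 13805 genes tested in males, 0.00724 percent, Cpt1a alone, were called.

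The difference between the sexes in the genotype effect on Creb3l3, females minus males, was 0.30 on the log2 scale (SE 0.13, edgeR adjusted p 0.355), with 0 of 14503 genes called for this contrast, 1874 at an unadjusted p under 0.05 and 97 called by DESeq2. Creb3l3 in control females was -0.09 relative to control males on the log2 scale (SE 0.11, edgeR adjusted p 0.622), in a comparison in which, of 13699 genes, 8.8 percent were called as higher in females and 9.19 percent as lower. From the lowest mean the groups ran from control females through LKO males and control males to LKO females, an order unlike that of Apoa4, and the first 3 groups lay within 1 SD of their neighbours.

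Cidec (ENSMUSG00000030278, chromosome 6, 113401595 to 113412721, minus strand, mm39) had the order of groups seen for Apoa4, over a wider range. In control females the lowest, median and highest values were 5.89, 10.5 and 18.9 CPM. In LKO females they were 24.4, 43.3 and 75.2 CPM. Every LKO female was above every control female. The means were 11.5 ± 5.85 and 46.4 ± 17.4 CPM (SD, n = 6 each), and Cidec was higher by 2.01 on the log2 scale (SE 0.32, adjusted p 0.00691 by edgeR). Since Cidec was chosen for its relation to Apoa4, the p-values of its contrasts are not independent of that choice. The call was held in all 12 fits that left out 1 female liver, and it was lost in the fit of all 23 livers (log2 fold change 2.02, adjusted p 0.0660). The counts do not separate the Cidec isoforms, of which a hepatic one is described as the CREBH target.

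The 5 control males had 225, 222, 300, 10.3 and 267 CPM of Cidec. In LKO males the lowest, median and highest values were 57.5, 237 and 312 CPM. Control male replicate 4 had the level of a control female, and LKO male replicate 1 that of an LKO female. The male log2 fold change was 0.13 (SE 0.58, edgeR adjusted p 0.953), or -0.17 without control male replicate 4 (adjusted p 0.886). Among controls the female minus male difference was -4.16 on the log2 scale (SE 0.63; adjusted p 0.000896 by edgeR), and 4 of 5 control males were above all control females. With replicate 4 below the highest female, Cidec was not among the 5.17 percent of genes whose control females all lay below the males, nor, by its sign, among the 5.13 percent that lay above. The sexes did not differ detectably in the genotype effect on Cidec (1.88, SE 0.70, edgeR interaction adjusted p 0.289).

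Apoa4 and Cidec also varied together among livers of the same group. To remove the differences between groups, the group mean of log2(CPM + 1) was subtracted for each gene. Over the 23 livers the deviations of Apoa4 followed those of Cidec with Pearson r = 0.925 and Spearman rho = 0.866. Without control male replicate 4 and LKO male replicate 1, the livers farthest from the median of Cidec, r was 0.799. It was 0.805 in the 12 females and 0.888 in the 10 males left without control male replicate 4. Apoa4 changed by 0.51 on the log2 scale for each unit of Cidec.

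Within single groups of 6 livers the same relation was positive in each. In LKO males r was 0.919 and rho 0.943, and r was 0.950 without the 2 livers farthest from the median of Cidec. In control females r was 0.760 and rho 0.886, and r was 0.675 without the farthest 2. In LKO females r was 0.877 and rho 0.829, but r was 0.372 without the 2 livers farthest from the median, so that relation rests on them. The 5 control males, too few for a coefficient, had their lowest Apoa4 and lowest Cidec in replicate 4 and their highest of both in replicate 3.

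No such relation was detected between Creb3l3 and Apoa4. Over the 23 livers r was -0.189 (two-sided permutation within groups, p 0.452, adjusted 0.629 over the 16 relations computed) and rho -0.00593 (permutation p 0.981, adjusted 1.0), and without the 2 livers farthest from the median of Creb3l3 r was -0.319. Without control male replicate 4 the sign of r turned, at 0.0943. By sex, r was 0.416 and rho 0.503 in the 12 females. In males r was -0.512 and rho -0.509, or -0.188 and -0.152 without control male replicate 4. The values by sex were not tested. In LKO males r was -0.273 (exact permutation p 0.622, adjusted 0.711) and rho -0.486 (exact permutation p 0.356, adjusted 0.632). In control females r was 0.649 (exact permutation p 0.111, adjusted 0.222) and rho 0.714 (exact permutation p 0.136, adjusted 0.272). In LKO females r was -0.109 (exact permutation p 0.844, adjusted 0.844) and rho -0.0286 (exact permutation p 1.0, adjusted 1.0). Without the farthest 2 livers r was -0.124, 0.381 and 0.386 in these groups. None was detected between Creb3l3 and Cidec either, with r = -0.193 (permutation p 0.472, adjusted 0.629) and rho = -0.0109 (permutation p 0.966, adjusted 1.0) over the 23 livers. The sign turned without control male replicate 4 (0.168) and without that liver and LKO male replicate 1 (0.195). By sex r was 0.466 in females and -0.553 in males, or -0.213 in males without control male replicate 4, again not tested. Single groups differed in sign for this pair, with r = 0.803 in control females (exact permutation p 0.0806, adjusted 0.184). It was -0.331 in LKO males (exact permutation p 0.444, adjusted 0.629) and -0.449 in LKO females (exact permutation p 0.414, adjusted 0.629). Without the farthest 2 livers these were 0.921, -0.420 and -0.0287. The spread of Creb3l3 within groups was small, so these coefficients rest on narrow ranges.

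**Figure D2:**
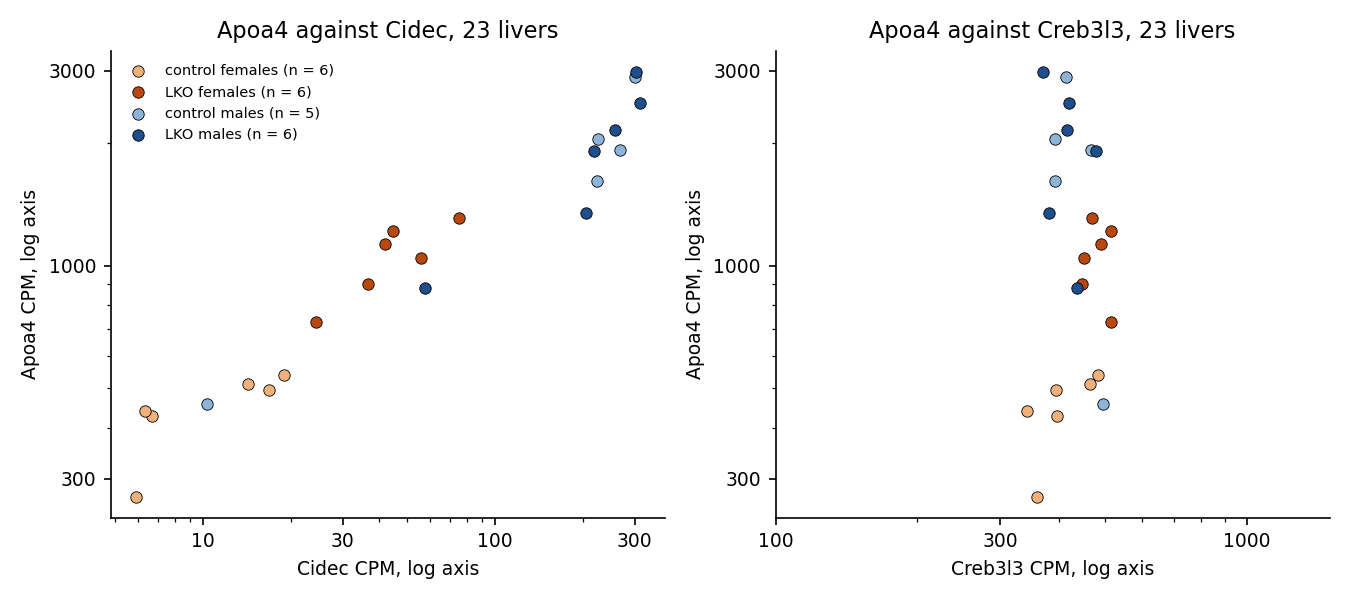
Apoa4 against Cidec (left) and against Creb3l3 (right) in 23 livers, both axes as TMM-scaled CPM on log scales, coloured by group. The points of all 4 groups lie along 1 rising band for Cidec, with control male replicate 4 (10.3 CPM Cidec, 457 CPM Apoa4) among the control females, and form a narrow column between 342 and 516 CPM for Creb3l3.

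Likeness to Apoa4 was then described for 10578 genes tested in both tables whose counts averaged 50 or more, by r of the same deviations over 23 livers. Cidec was second of these genes, and ninth without control male replicate 4. Its rank was 20 in females alone and 88 in males without that liver. Cidec was chosen for this relation, so nothing is read from its place. The 5 highest were Rab3d (r = 0.933), Cidec, Uap1l1 (0.914), Anxa5 (0.913) and S100a11 (0.898). Rab3d encodes a small GTPase of vesicle traffic, Anxa5 and S100a11 encode calcium-binding proteins, and Uap1l1 encodes a relative of a nucleotide-sugar enzyme. Without control male replicate 4 their r was 0.906 for Rab3d, 0.844 for Uap1l1, 0.823 for Anxa5 and 0.846 for S100a11. In females alone these were 0.923, 0.620 (rank 301), 0.782 and 0.726. The lowest were Paics (-0.897), Sdc2 (-0.891) and Pdcd4 (-0.887). Creb3l3 stood at rank 6692 and Plin2, the main hepatic lipid droplet coat gene, at rank 226 with r = 0.717. Without control male replicate 4 Creb3l3 was at rank 3893 and Plin2 at rank 418 with r = 0.569. In females alone Creb3l3 was at rank 1343 with r = 0.416 and Plin2 at rank 1231 with r = 0.433.

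Of the genes most like Apoa4, Uap1l1, Anxa5 and S100a11 were also called higher in LKO females, as were 0.928 percent of 13684 tested genes. They were picked by likeness to Apoa4, itself chosen for its rise in females, so nothing is read from their number. Uap1l1 was 12.4 ± 2.75 CPM in control and 32.0 ± 10.7 in LKO females (SD, n = 6 each), a rise of 1.36 on the log2 scale (SE 0.21; adjusted p 0.00691 by edgeR). S100a11 rose by 0.90 (SE 0.14, edgeR adjusted p 0.00576) and Anxa5 by 0.56 (SE 0.11, edgeR adjusted p 0.0202). Each of these calls was lost in the fit of all 23 livers, and that of Anxa5 also when control female replicate 1 or 5 or LKO female replicate 2 or 3 was left out (adjusted p 0.0556 to 0.0653). Rab3d, at 16.5 ± 3.02 and 21.6 ± 3.54 CPM, was not called (0.39, SE 0.13, edgeR adjusted p 0.165).

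**Figure D3:**
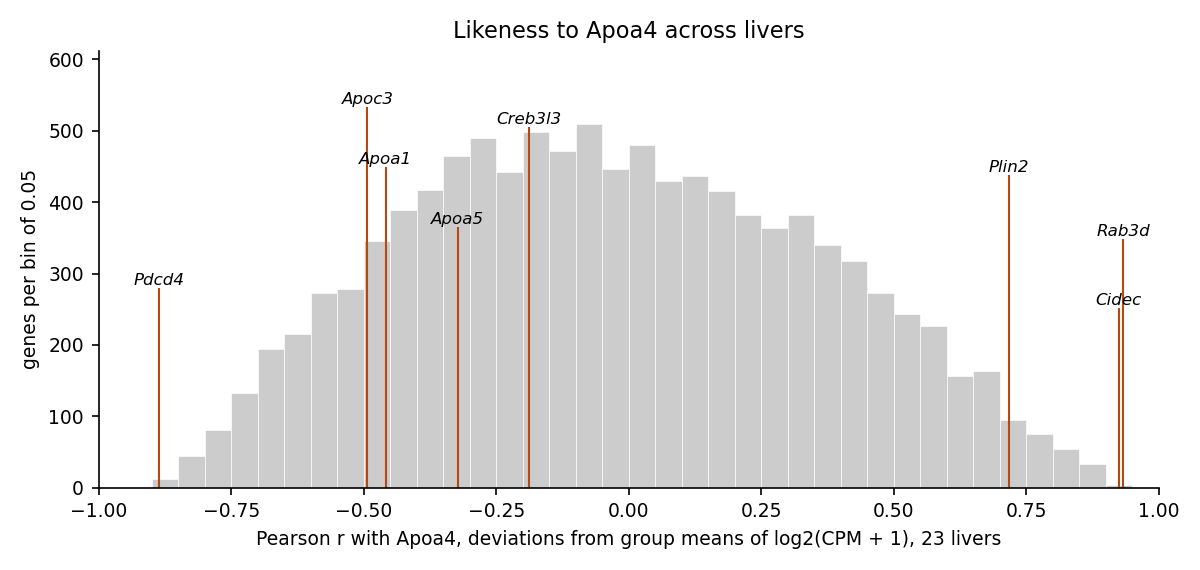
Number of genes (vertical axis) by Pearson r with Apoa4 (horizontal axis), from deviations of log2(CPM + 1) from group means over 23 livers and 10578 genes; orange lines mark named genes and their heights carry no meaning. Cidec (0.925) and Rab3d (0.933) lie at the upper end, while Creb3l3 (-0.189) and the neighbouring Apoa1, Apoc3 and Apoa5 lie below 0.

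In females the other genes of the apolipoprotein cluster had smaller differences between genotypes than Apoa4, while in males Apoa1, Apoc3 and Apoa5 had larger ones, all negative. Since Apoa4 was picked for its rise in females, nothing is read from its place above its neighbours there. None of the 7 neighbours was called in either sex by edgeR, against 1.42 percent of all genes in females and 0.00724 percent in males. Of the 7, 1 in females and 4 in males had a positive log2 fold change (median -0.10 and 0.04, against 0.01 for all genes in each sex). The male median was -0.02, with 3 of 7 positive, without control male replicate 4. Apoa1, the main HDL protein, starts 12.1 kb before Apoa4. It was 10699 ± 2618 CPM in control females and 10237 ± 2368 in LKO females (SD, n = 6 each). The log2 difference was -0.07 (SE 0.18; adjusted p 0.905 by edgeR), and its sign turned without control female replicate 1 (0.06) or LKO female replicate 3 (0.002). In males it was -0.47 (SE 0.16, edgeR adjusted p 0.284).

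Apoc3, an inhibitor of triglyceride clearance, lies between them on the opposite strand. Its log2 fold change was -0.35 in females (SE 0.15, edgeR adjusted p 0.275) and -0.29 in males (SE 0.13, adjusted p 0.368). Apoa5, an activator of lipoprotein lipase, starts 27.9 kb after Apoa4, with -0.11 in females (SE 0.14, edgeR adjusted p 0.779) and -0.22 in males (SE 0.12, adjusted p 0.485). Their r with Apoa4 over the 23 livers was -0.458 for Apoa1, -0.493 for Apoc3 and -0.323 for Apoa5. Without control male replicate 4 these were -0.446, -0.307 and -0.113. In females alone they were -0.573, -0.466 and 0.192, so the sign for Apoa5 turned there. The flanking genes Pafah1b2, Sik3, Zpr1 and Bud13 had log2 fold changes of -0.27 (Sik3, SE 0.10, edgeR adjusted p 0.190) to 0.07 (Pafah1b2) in females and of 0.04 (Pafah1b2) to 0.13 (Zpr1) in males.

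**Figure D4:**
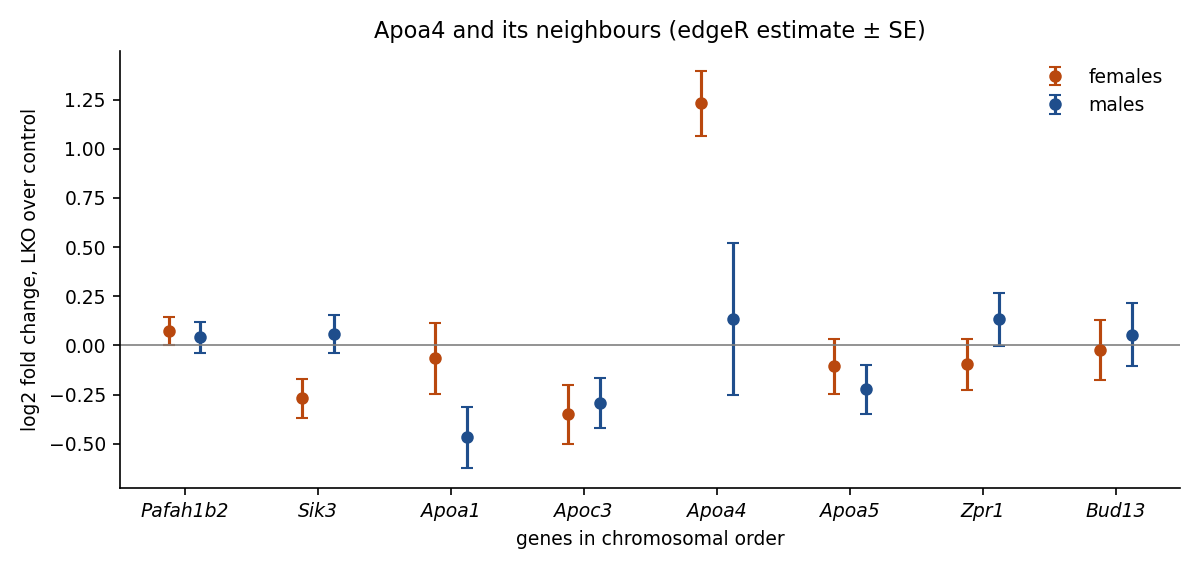
Fitted log2 fold change of LKO over control (vertical axis, edgeR estimate ± SE) for Apoa4 and 7 neighbouring genes in chromosomal order, females in orange and males in blue. Apoa4, which was picked for its rise in females, is at 1.23 there. Its neighbours lie between -0.35 and 0.07 in females and between -0.47 and 0.13 in males. The male Apoa4 estimate has the widest error.

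Per gene length, in deposited FPKM (fragments per kilobase and 1e6 fragments), Apoa4 moved within the order of 15 plasma lipoprotein genes. In control females it was 245 ± 52.4 FPKM (SD, n = 6), in place 10 of the 15 and below Apoa5 (682 ± 114). In LKO females it was 573 ± 116 FPKM, in place 8, with Apoa5 at 631 ± 122. In control males it was 981 ± 485 FPKM (SD, n = 5), in place 7, and in LKO males 1075 ± 418 FPKM (SD, n = 6), in place 6, both above Apoa5. Apoc3 held place 5 in all 4 groups, at 1818 to 2345 FPKM. Among the other 14 genes of this list none was called in either sex, against 1.42 percent of all genes in females and 0.00724 percent in males. The median log2 fold change was -0.06 in females and -0.28 in males, or -0.18 without control male replicate 4, with 12 of 14 negative in males, where the lowest p values were those of Apoa1 and Apom (-0.64, SE 0.23, edgeR adjusted p 0.303).

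The genes described as CREBH targets were measured as a list of 15 without Apoa4. Cidec was the only member called, in females, of 14 tested there, where 9 were positive and the median log2 fold change was 0.10, against 1.42 percent called and a median of 0.01 over all genes. Nothing is read from that call, since Cidec was chosen for its relation to Apoa4. Fgf21, a fasting hormone of the liver, was 5.63 ± 2.999 CPM in control females and 21.3 ± 21.7 in LKO females (SD, n = 6 each), a log2 difference of 1.91 that edgeR did not call (SE 0.53, adjusted p 0.0906) and DESeq2 did. Over all genes in females DESeq2 called 559, against 194 by edgeR. In males edgeR called 0 of 15, against 0.00724 percent of all genes, and 6 were positive, with a median of -0.15, or 4 and -0.06 without control male replicate 4. The lowest p there was that of Apcs, the serum amyloid P gene, at -0.64 (SE 0.15, edgeR adjusted p 0.235), which DESeq2 called (adjusted p 0.0111). Over all genes in males DESeq2 called 114. Fgf21 in males was at -0.80 on the log2 scale (SE 0.36; adjusted p 0.386 by edgeR).

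None of the relatives of Creb3l3 or the proteases that release them was called. Of the 7 tested of 8 listed (Creb3 family, Atf6, Atf6b, Mbtps1 and Mbtps2), 0 were called in either sex, with medians of 0.0008 in females and 0.08 in males. Over all genes 1.42 percent were called in females and 0.00724 percent in males, so nothing is read from these counts of 0. Mbtps1, the site-1 protease gene, had log2 fold changes of -0.04 in females and 0.08 in males (SE 0.07 and 0.08). Of 12 ER stress genes 0 were called in either sex, beside the same shares over all genes. Their median was -0.14 in females, where 4 of 12 were positive, and 0.15 in males, where 10 of 12 were positive (0.21 and 9 of 12 without control male replicate 4). In females the lowest p values were those of Herpud1, a factor of ER-associated degradation (-0.51, SE 0.16, edgeR adjusted p 0.125), and Dnajb9, an ER co-chaperone (-0.41, SE 0.13, adjusted p 0.139), and DESeq2 and the fit with a replicate block called Herpud1. In males they were those of Atf4, a stress-response transcription factor (-0.31, SE 0.09, edgeR adjusted p 0.274), and Dnajb9 (0.66, SE 0.27, adjusted p 0.343). Beside the female call of Herpud1, DESeq2 called 559 genes in all against 194 in the main fit, and the replicate block also called more than 194.

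Of the other regulators described for Apoa4 or its cluster, edgeR called 0 of 12 in each sex, against 1.42 percent of all genes in females and 0.00724 percent in males, with medians of -0.10 in females and 0.01 in males. Hnf4a encodes the factor whose motif was matched by letters in the Apoa4 window, where binding was not measured. Its transcript was 554 ± 65.1 CPM in control females and 459 ± 107 in LKO females (log2 fold change -0.27, SE 0.14, edgeR adjusted p 0.350). Nr1d1, the circadian repressor REV-ERB alpha, had -0.90 in females (SE 0.34, edgeR adjusted p 0.216) and -0.54 in males (SE 0.24, adjusted p 0.374). The fit with a replicate block called Nr1d1 lower in females (adjusted p 0.0284), and over all genes it called more than the 194 of the main fit.

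Of the lipid droplet genes, Cidec included, 13 of 14 tested were positive in females, at a median log2 fold change of 0.61 against 0.01 for all genes. Cidec, chosen for its relation to Apoa4, was the only one that edgeR called, against 1.42 percent of all genes. Plin2 had 0.71 (SE 0.17, edgeR adjusted p 0.0519) and Cd36, a fatty acid uptake receptor, 0.59 (SE 0.18, edgeR adjusted p 0.111), and both were called by DESeq2 and with a replicate block. The member in the other direction was Pnpla3, a triglyceride remodelling gene, at -1.52 (SE 0.40, edgeR adjusted p 0.0761), which the same alternatives called lower. Over all genes in females DESeq2 called 559 against 194 by edgeR, and the replicate block also called more than 194. In males 5 of 15 were positive, with a median of -0.04 and 0 called, or 2 of 15 and -0.18 without control male replicate 4, where again 0 were called. Over all 7 lists, edgeR called 0 of 72 members tested in males, against 1 of 13805 genes in all (1720 at an unadjusted p under 0.05), and DESeq2 called 1, Apcs, against 114 in all.

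The levels of other cell types were set beside Apoa4 and Cidec, since in bulk liver a change in the number of cells of a type and a change in RNA per cell cannot be told apart. The enterocyte list summed to 187 to 259 CPM in control males, 183 to 264 in LKO males, 122 to 199 in control females and 168 to 272 in LKO females, nearly all of it Fabp2, and its part in the Apoa4 levels was not tested. Enterocyte markers other than Fabp2, which liver also expresses, were at or near 0. Cdx1, Cdx2 and Sis were in neither table, Lct and Alpi reached at most 3 counts, Vil1 at most 12 and Slc5a1 at most 45. The adipocyte markers Adipoq, Lep, Plin1, Retn and Cfd summed to 1.205 to 47.7 CPM in control males, 3.95 to 25.7 in LKO males, 0 to 3.14 in control females and 0.478 to 6.71 in LKO females, with Cfd giving most of the counts in every male liver. The sum was lowest of the males in control male replicate 4. Control male replicate 3 and LKO male replicates 3 and 4, with 300 to 312 CPM of Cidec, had 0 counts of Adipoq and of Plin1. Their Cfd counts were 374, 69 and 159. LKO female replicate 4, with 55.6 CPM of Cidec, had 26 counts of Adipoq and 31 of Plin1. LKO female replicate 3, with 75.2 CPM of Cidec, had 1 and 2. The part of adipocyte RNA in the Cidec levels was not tested. No marker of hepatocytes, enterocytes, adipocytes, macrophages, stellate cells, endothelium, bile ducts or lymphocytes was called in either sex. Over all genes the shares called were 1.42 percent in females and 0.00724 percent in males. Of the 4 acinar pancreas markers, Cela2a was lower in LKO females, at 3 to 30 counts per female library. Cpa1, Prss1 and Pnlip were not in both tables.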

How the data were processed

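Liver RNA of 23 mice was measured by RNA-seq of poly-T-selected mRNA in libraries made with dUTP, per the labels' protocols. Reads were aligned with HISAT2 2.0.5 to mm39, per the submitters' processing notes; the counter, its strand setting and the annotation are not given in the sources used here. The authors deposited raw read counts per gene, a normalized count signal, FPKM per gene length, and their own log2 fold changes and p-values, of which the last 2 and the signal were not used. All sample columns were mapped.

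Counts were tested with edgeR 4.0.16 in R 4.3.3: filterByExpr, TMM, quasi-likelihood test, Benjamini-Hochberg adjustment over all genes, call at an adjusted p under 0.05, each sex alone; the interaction and the control comparison used genes in both tables (22852). Nothing says whether the samples are independent beyond their labels, so p-values measure the spread between samples; no libraries agreed within sampling noise. Library totals of 14224665 to 19626662 counts make counting error small for Apoa4, Creb3l3 and Cidec. Correlations used log2(CPM + 1). The p-values planned for Apoa4 with Cidec were left out of the text, since the choice of genes used that relation. They stayed in the adjustment over 16 relations, where they can make the other adjusted values smaller. Scripts were tested on simulated data. Promoters are from RefSeq (GRCm38.p6), matched by symbol for 2 of 2 genes.

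The members and 7 gene lists were chosen with earlier results of these data known. Named genes are Apoa4, Creb3l3, Cidec and Cpt1a, all neighbours, list members called or else with the 2 lowest p values per sex, and the genes most like Apoa4 (5 highest, 3 lowest) and Creb3l3 (3 highest); Fgf21, Mbtps1, Plin2, Cd36 and, in females, Pnpla3 were named after their values were seen. Alternatives were RLE factors, library size alone, no filter or at least 10 counts per sample, DESeq2 1.42.0, limma-trend 3.58.1 on log2(FPKM + 1) or log2(FPKM + 0.1), all 23 livers in 1 fit, a replicate block, and leaving out each liver.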

Additional observations from a re-analysis of the deposited data

Results flagged for a closer look

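The 28 pairs of a gene and a group (Apoa4, Creb3l3, Cidec, Cpt1a, Apoa1, Apoc3 and Apoa5 in 4 groups) were searched for a liver that stands apart from its group by Dixon's criterion, which chance meets in about 5 percent of groups. Cidec in control males was set apart by replicate 4, at 10.3 CPM, where the next lowest was 222 CPM; Apoa4 in the same liver, at 457 CPM, did not meet the criterion. Apoc3 in LKO males was set apart by replicate 5, at 1577 CPM, where the next lowest was 1875 CPM.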

How the results depend on the processing

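Over all alternatives Creb3l3 was called in none of its 4 comparisons, and the female Apoa4 log2 fold change ran from 1.13 to 1.32. The male Creb3l3 value turned to 0.0086 with library size alone. The male Apoa4 value, 0.13, ran from -0.11 to 0.39 when single livers were left out, turning at -0.11 without control male replicate 4 and at -0.017 without LKO male replicate 3. The male Cidec value, 0.13, ran from -0.17 (without control male replicate 4) to 0.33, and the female Apoa1 value turned to 0.062 without control female replicate 1 and 0.0023 without LKO female replicate 3. Over all genes, male calls were 2 with library size alone, 2 with no filter, 3 with at least 10 counts, 114 with DESeq2, 5 in the fit of all livers and 1 to 2 when single livers were left out. Female calls, 194, were 559 with DESeq2, 94 in the fit of all livers and 87 to 233 when single livers were left out, lowest without control female replicate 5. Of 73 list members, male calls were 1 with DESeq2 and female calls, 1, were 2 with no filter, 6 with DESeq2 and 1 to 3 with single livers left out. The r of Apoa4 with Cidec over 23 livers ran from 0.843 (without control male replicate 4) to 0.941 when single livers were left out, from 0.908 to 0.980 in LKO males, 0.704 to 0.958 in control females and 0.698 to 0.931 in LKO females; the cause was not tested. The labels do not say whether same-numbered livers of the 2 genotypes are paired (correlation of deviations -0.377 to 0.417 in males and -0.013 to 0.183 in females). In females, control replicates 1, 3, 4 and 6 each correlated best with the LKO liver of their own number. In males only control replicate 3 did. A pairing was not tested. With the replicate number as a block there were 2 male and 334 female calls over all genes and 0 male and 7 female calls among list members, and Creb3l3 was not called. Every liver had at least 4055 counts of each of the 2 genes; whether more livers would change a call was not tested.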

Other observations

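Creb3l3 had its own set of closest genes, by r of deviations from group means over 23 livers. They were Retsat (0.842), the retinol saturase gene, Cpt2 (0.815), which encodes the carnitine palmitoyltransferase of the inner mitochondrial membrane, and Stk16 (0.808). Without control male replicate 4 these were 0.836, 0.847 and 0.817, and none of the 3 was called between genotypes in either sex (edgeR adjusted p 0.128 to 0.981).

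The residual Cpt1a of single livers had no common relation to Apoa4. The adjustment here is over the same 16 relations, which include those of Apoa4 with Cidec that the choice used. Their small p-values can make the other adjusted values smaller, so nothing is read from adjusted values near the threshold. In control females r was 0.973 (exact permutation p 0.0194, adjusted 0.0778) and rho 0.943 (exact permutation p 0.0167, adjusted 0.0889), with r = 0.963 without the 2 livers farthest from the median. In LKO males r was -0.827 (exact permutation p 0.0583, adjusted 0.156) and rho -0.886 (exact permutation p 0.0333, adjusted 0.107), with r = -0.785 without the farthest 2. In LKO females r was -0.266 (exact permutation p 0.608, adjusted 0.711) and rho -0.371 (exact permutation p 0.497, adjusted 0.730), and r was 0.739 without the farthest 2. Over the 23 livers r was -0.0967 (permutation p 0.697, adjusted 0.744) and rho -0.129 (permutation p 0.593, adjusted 0.730), with r = 0.269 without LKO male replicates 1 and 4. The difference between the groups was not tested.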
